A study of Homo sapiens with 14 samples.

Results

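The cyclic AMP phosphodiesterases PDE4A, PDE4B, PDE4C, PDE4D, PDE3A, PDE3B, PDE7A, PDE7B, PDE8A and PDE8B are 10 genes for enzymes that degrade cyclic AMP, described here in a myeloma cell line. They were taken by symbol, through every probe set whose annotation held only that symbol. This gave 37 probe sets for 9 of the genes, out of 41097 such probe sets for 19775 genes on the array. The 4 probe sets listed for PDE4C also carried another symbol, and that gene was not analysed here. A probe set was tested when its log2 level reached 4 on at least 2 arrays, which 14 of the 37 did, and these stood for 6 of the 9301 genes tested. Of those 6, PDE4A, PDE4B, PDE7A and PDE8A had a probe set above that level in every group, whereas PDE3B and PDE4D passed only through treated arrays. Their calls follow in part from that filter, so counts of members are descriptions here.

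Cyclic AMP is the second messenger made by adenylyl cyclases when receptors that couple to the stimulatory G protein are engaged, and it activates protein kinase A. Phosphodiesterases hydrolyse it, and are therefore the step that ends the signal. The PDE4, PDE7 and PDE8 families are specific for cyclic AMP, while PDE3 enzymes also bind cyclic GMP, which inhibits their cyclic AMP hydrolysis. Several PDE4 genes are known to be induced by cyclic AMP itself, a negative feedback that is well described in leukocytes, in which PDE4B is prominent. The study paired agonists of 2 receptors that raise cyclic AMP with a glucocorticoid, and asked by its title what the agonists do in combination with it.

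MM1S is an established human multiple myeloma line, and each of its 7 groups held 2 arrays labelled as biological replicates. The groups were untreated cells, 1 nM salmeterol (a beta-2 adrenergic agonist), 12.5 nM CGS-21680 (an adenosine receptor agonist), 25 nM dexamethasone (the low dose), 2 µM dexamethasone (the high dose), 1 nM salmeterol with 25 nM dexamethasone, and 12.5 nM CGS-21680 with 25 nM dexamethasone. Treatment lasted 6 h, at 1 time point and 1 dose of each agonist, in 1 cell line. The labels do not say how the replicate cultures were separated, so the spread behind the p-values is that between the 2 samples of each group and may be technical.

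The median log2 level of the 9301 genes tested lay between 7.44 and 7.63 on the 14 arrays. Across genes, the 2 arrays of a group had correlations of 0.987 to 0.992. Plasma cell markers fitted the labelled cell type, with 8 of 8 measured markers above the filter (SDC1 at 11.32 to 13.15, IRF4 at 8.66 to 11.93). Of other cell types, 4 of 5 T cell markers, 4 of 4 myeloid, 4 of 5 stromal, 1 of 2 erythroid and 3 of 3 mature B cell markers did not pass the filter, with CD3E, CD14 and MS4A1 at 2.29. Those that passed were TRAT1 (5.51 to 8.15), COL1A1 (7.07 to 7.43) and HBB (7.15 to 7.69). TRAT1 had means of 7.48 with low dexamethasone and 5.61 with salmeterol and low dexamethasone, lower by the test (adjusted p = 0.0196, limma), in the same comparison in which the phosphodiesterases below were higher. Its part in those results was not tested. In such bulk samples fewer cells of a kind and less RNA per cell cannot be told apart.

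All differences below are on the log2 scale, with the standard error of a limma model of 7 group means on the 14 arrays, and adjusted p-values are from that model with Benjamini-Hochberg adjustment over 9301 genes. Group means carry the standard deviation of 2 arrays. A gene is said to have risen or fallen at an adjusted p under 0.05. Each gene is represented by its probe set with the highest mean, and other probe sets were tested in a second limma fit of 15606 probe sets. Levels are relative within a probe set and are not compared between probe sets or genes. The change with salmeterol and the change with CGS-21680 share the untreated arrays, and the changes beside low dexamethasone share the low dexamethasone arrays.

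PDE4B, the PDE4 gene known for induction in leukocytes, rose with each agonist. Its probe set 203708_at lay at log2 levels of 6.95 and 6.36 on the untreated arrays, at 9.95 and 10.10 with salmeterol and at 9.10 and 8.90 with CGS-21680. Every agonist array lay above every untreated array. The rise was 3.37 ± 0.342 with salmeterol (adjusted p = 0.000696), a 10.3-fold change, and it passed whichever of the 14 arrays was left out, but not with only the 2 groups in the fit (adjusted p = 0.0778). With CGS-21680 it was 2.35 ± 0.342 (adjusted p = 0.0188). That call was lost without untreated replicate 1 or 2 or CGS-21680 replicate 1 or 2 (adjusted p = 0.0697 to 0.138, values 2.05 to 2.64), with no filter (0.0797), with the mean of the gene's probe sets (0.0505) and with only the groups compared (0.339).

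With dexamethasone by itself no change of PDE4B was detected. The low dose gave 5.96 and 7.11 and the high dose 6.43 and 6.78, and these overlapped the untreated arrays. The differences were −0.12 ± 0.342 (adjusted p = 0.949; 95% interval −0.89 to 0.65) and −0.05 ± 0.342 (adjusted p = 0.982; −0.82 to 0.72). With low dexamethasone present, PDE4B reached 10.34 and 10.37 with salmeterol and 9.12 and 9.59 with CGS-21680. These were rises of 3.82 ± 0.342 (adjusted p = 0.000123) and 2.82 ± 0.342 (adjusted p = 0.00263) over low dexamethasone alone, and both passed without any 1 array but not with only the groups compared (0.0513 and 0.224).

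In order of PDE4B level, salmeterol with low dexamethasone came first, then salmeterol, CGS-21680 with low dexamethasone, CGS-21680, and the 3 groups without an agonist. The neighbours at the top differed by 0.33 ± 0.342 (adjusted p = 0.588), and CGS-21680 with and without dexamethasone by 0.35 ± 0.342 (adjusted p = 0.604). The interaction, which is the agonist's change beside low dexamethasone minus its change alone, was 0.45 ± 0.483 for salmeterol (adjusted p = 0.818) and 0.47 ± 0.483 for CGS-21680 (adjusted p = 1), and neither passed.

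A second PDE4B probe set, 211302_s_at, moved the same way. Its group means were 5.44 ± 0.23 (SD, n = 2) in untreated cells, 8.20 ± 0.16 with salmeterol, 7.27 ± 0.39 with CGS-21680, 8.82 ± 0.11 with salmeterol and low dexamethasone and 7.39 ± 0.41 with CGS-21680 and low dexamethasone. In the fit of probe sets it passed for salmeterol alone (2.76, adjusted p = 0.0125) and for both agonists beside dexamethasone (3.89, adjusted p = 0.000889, and 2.46, adjusted p = 0.0327), but not for CGS-21680 alone (1.83, adjusted p = 0.234). Its low dexamethasone arrays were 4.03 and 5.84, the widest pair of this probe set. The third, 215671_at, was at the floor of 2.29 on 12 arrays and at 2.46 and 3.64 with salmeterol.

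PDE4A, another cyclic AMP-specific enzyme of the PDE4 family, rose in the combinations of agonist and dexamethasone and was not called with any agent by itself. Its probe set 204735_at read 5.87 and 6.39 in untreated cells, 5.80 and 5.45 with salmeterol, 5.64 and 6.14 with CGS-21680, 6.14 and 6.14 with low dexamethasone and 6.13 and 5.71 with high dexamethasone. Both salmeterol arrays lay below both untreated and both low dexamethasone arrays, and the other groups overlapped with the untreated one. None of the 4 single treatments passed (−0.50 ± 0.225, adjusted p = 0.249, for salmeterol; −0.24 ± 0.225, adjusted p = 0.907, for CGS-21680). The combinations read 7.82 and 7.93 with salmeterol and 7.14 and 7.25 with CGS-21680, above all 10 of the other arrays.

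Salmeterol raised PDE4A by 1.74 ± 0.225 beside low dexamethasone (adjusted p = 0.000975), and low dexamethasone raised it by 2.25 ± 0.225 beside salmeterol (adjusted p = 0.000169). The interaction of salmeterol with dexamethasone was 2.24 ± 0.318 (adjusted p = 0.0084; 95% interval 1.52 to 2.96). It was the only member called among the 6 tested in a comparison that called 1.19% of all genes as higher, and it passed whichever of the 14 arrays was left out (1.98 to 2.50). For CGS-21680 the interaction was 1.29 ± 0.318 and did not pass (adjusted p = 0.279; 0.58 to 2.01), in a comparison that called 0.151% of genes. Low dexamethasone raised PDE4A by 1.30 ± 0.225 beside CGS-21680 (adjusted p = 0.00507).

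CGS-21680 raised PDE4A by 1.05 ± 0.225 beside low dexamethasone (adjusted p = 0.0394), a call near the threshold. It was lost without either array of salmeterol, low dexamethasone, salmeterol with low dexamethasone, or CGS-21680 with low dexamethasone (adjusted p = 0.0531 to 0.162, values 1.00 to 1.11) and with no filter (0.132). With only the groups compared it had adjusted p = 0.151, and dexamethasone beside CGS-21680 and the CGS-21680 combination over untreated cells each had 0.108. Equal values of the low dexamethasone replicates gave that group a standard deviation of 0.00, but the model pools the spread over all groups. The PDE4A rise over untreated cells was 1.75 ± 0.225 in the salmeterol combination (adjusted p = 0.000473) and 1.06 ± 0.225 in the CGS-21680 combination (adjusted p = 0.0117), the latter lost without untreated replicate 1 (0.81, adjusted p = 0.0892), without replicate 2 of CGS-21680 with low dexamethasone (1.01, adjusted p = 0.0629) and with no filter (0.0502).

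The other tested PDE4A probe sets were also highest in the salmeterol combination. Probe set 211447_s_at had means of 3.87 ± 0.06 (SD, n = 2) in untreated cells, 4.12 ± 0.27 with salmeterol, 3.92 ± 0.00 with low dexamethasone, 5.89 ± 0.28 with both, and 4.39 ± 0.26 with CGS-21680 and low dexamethasone. It reached log2 4 on 6 of 14 arrays, so its differences rest partly on levels below the filter. Its interaction with salmeterol was 1.72 (adjusted p = 0.0146 in the fit of probe sets), whereas CGS-21680 beside low dexamethasone gave 0.48 (adjusted p = 0.291). Probe set 211901_s_at rose by 1.03 with salmeterol beside dexamethasone (adjusted p = 0.0072), with 0.37 for CGS-21680 (adjusted p = 0.462) and an interaction of 1.18 that did not pass (adjusted p = 0.088). The remaining ones, 242435_at and 211591_s_at, stayed between 2.71 and 3.95 on all arrays.

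**Figure D1:**
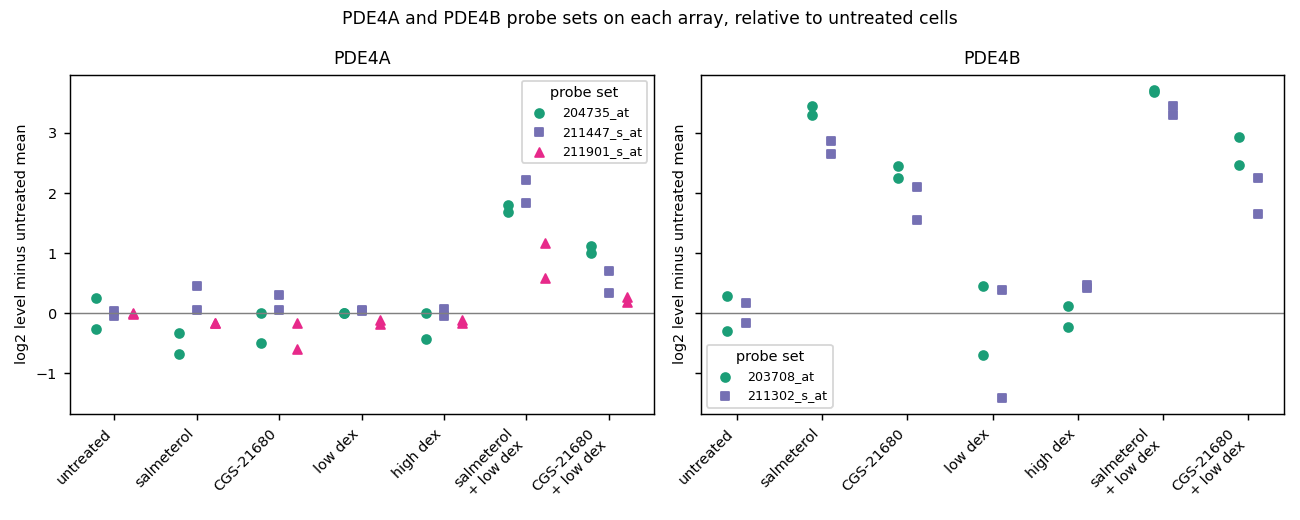
Log2 level of each tested PDE4A (left) and PDE4B (right) probe set on each array minus the untreated mean of that probe set, by group, with 2 points per probe set and group. PDE4B probe sets lie above the untreated level in all 4 groups with an agonist, whereas PDE4A probe set 204735_at is within 1 log2 unit of it on all arrays outside the combinations.

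PDE4D, the third PDE4 gene measured, was below the filter level outside the combinations except on 1 array. It thus entered the test through the combinations, and its calls there follow in part from the filter. Probe set 204491_at read 2.56 and 3.64 in untreated cells, 3.17 and 4.66 with salmeterol, 3.68 and 3.71 with CGS-21680, 3.83 and 3.50 with low dexamethasone and 3.80 and 2.58 with high dexamethasone. It read 6.42 and 5.54 with salmeterol and low dexamethasone and 5.78 and 5.68 with CGS-21680 and low dexamethasone, above all other arrays. Against low dexamethasone the difference was 2.32 ± 0.562 with salmeterol (adjusted p = 0.0234; at least 3.95-fold when low levels are set to the filter level) and 2.07 ± 0.562 with CGS-21680 (adjusted p = 0.0911; at least 3.33-fold). The CGS-21680 difference passed when levels below 4 were raised to 4 (1.73, adjusted p = 0.00929). That setting made the untreated, CGS-21680, low dexamethasone and high dexamethasone arrays equal. It removed their spread from the model, so this pass adds no support. Over untreated cells PDE4D rose by 2.88 ± 0.562 in the salmeterol combination (adjusted p = 0.00492) and by 2.64 ± 0.562 in the CGS-21680 combination (adjusted p = 0.0121), the latter lost without untreated replicate 1 or either array of that combination (0.0519 to 0.0939) and with no filter (0.0599).

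The PDE4D calls leaned on single arrays. The rise with salmeterol was lost without low dexamethasone replicate 1 or 2 or replicate 1 of salmeterol with low dexamethasone (adjusted p = 0.0766 to 0.154, values 1.87 to 2.48), and with no filter (0.0991). Low dexamethasone raised PDE4D by 2.07 ± 0.562 beside salmeterol (adjusted p = 0.0344) and by 2.03 ± 0.562 beside CGS-21680 (adjusted p = 0.0416). The first became 1.32 without salmeterol replicate 1 (adjusted p = 0.207), and was also lost without either array of the salmeterol combination, of CGS-21680 or of low dexamethasone (0.0519 to 0.19). The second was lost without either array of CGS-21680, of low dexamethasone or of the CGS-21680 combination (0.0638 to 0.141) and with the replicate number as a block (0.0526). With no filter they had adjusted p = 0.132 and 0.162. With only the groups compared, PDE4D did not pass for salmeterol beside dexamethasone (0.0719), dexamethasone beside salmeterol (0.189) or the combinations over untreated cells (0.0645 and 0.0848). No interaction passed for PDE4D (1.50 ± 0.794, adjusted p = 0.532, and 1.47 ± 0.794, adjusted p = 0.904). The other 5 PDE4D probe sets lay between 2.29 and 2.67.

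Promoter windows in RefSeq (build GRCh38.p14, 250 bases before to 50 after each annotated start) were searched for the cyclic AMP response element to which CREB binds. The search covered 32 windows for 8 of the 10 genes. It left out PDE3B and PDE7A, so the counts of windows below do not cover them. The full element, TGACGTCA, which reads the same on both strands, was in 2 of the 32, at PDE4A and PDE7B, and in 1.85% of 35116 windows of all genes. Its core, TGACG or CGTCA on the other strand, which the full element contains, was in 4 of the 32 and in 24.6% of all windows. The perfect palindromic glucocorticoid response element was in 0 of the 32 and in 1 window of all genes, on either strand. The windows with a core at PDE4A, PDE4D and PDE7B are shown 5′ to 3′ on the gene's strand, with the cores in capitals, since they set a gene that rose in combinations and a weakly expressed one beside a gene at 2.29 to 2.53 on all arrays.
PDE4A, chr19:10416523-10416822, plus strand: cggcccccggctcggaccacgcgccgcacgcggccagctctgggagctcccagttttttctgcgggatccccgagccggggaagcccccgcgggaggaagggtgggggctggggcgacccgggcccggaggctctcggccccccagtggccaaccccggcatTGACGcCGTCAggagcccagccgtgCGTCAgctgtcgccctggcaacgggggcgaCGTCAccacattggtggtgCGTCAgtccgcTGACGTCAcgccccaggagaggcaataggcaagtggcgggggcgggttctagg
PDE4D, chr5:59587576-59587875, minus strand: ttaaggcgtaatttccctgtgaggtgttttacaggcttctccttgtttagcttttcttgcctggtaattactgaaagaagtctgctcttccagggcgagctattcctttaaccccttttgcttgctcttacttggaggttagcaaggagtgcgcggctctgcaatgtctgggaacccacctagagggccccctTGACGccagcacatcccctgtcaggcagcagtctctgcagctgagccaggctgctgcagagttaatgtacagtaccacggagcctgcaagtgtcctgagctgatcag
PDE7B, chr6:135851451-135851750, plus strand: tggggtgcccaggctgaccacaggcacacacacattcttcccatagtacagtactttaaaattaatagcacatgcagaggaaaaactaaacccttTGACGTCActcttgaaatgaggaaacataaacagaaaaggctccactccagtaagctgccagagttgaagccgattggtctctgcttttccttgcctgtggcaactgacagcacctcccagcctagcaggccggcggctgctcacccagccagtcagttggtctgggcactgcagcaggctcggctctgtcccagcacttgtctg
The PDE4A window is the most upstream of 5 for that gene and held 7 core matches, the last of them joined in the full element across the annotated start. Looked up after this was seen, 4 of the 35116 windows held 7 or more. The other 4 PDE4A windows, all 6 of PDE4B and 7 of 8 of PDE4D held none of these letters, and the arrays do not tell which start was used.

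PDE3B, a cyclic AMP phosphodiesterase inhibited by cyclic GMP and known from insulin action, followed the agonists and was undetected without them. Probe set 214582_at read 3.24 and 3.22 in untreated cells, 3.22 and 3.22 with low dexamethasone and 3.24 and 3.22 with high dexamethasone. It read 5.68 and 5.57 with salmeterol, 4.46 and 5.13 with CGS-21680, 6.66 and 6.70 with salmeterol and low dexamethasone and 4.82 and 6.40 with CGS-21680 and low dexamethasone. Each of the 8 agonist arrays lay above the filter level of 4, and each of the 6 others below it.

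PDE3B rose by 2.40 ± 0.404 with salmeterol alone (adjusted p = 0.0095; at least 3.09-fold), a call lost without untreated replicate 1 or 2 or salmeterol replicate 1 (0.0512 to 0.0618) and with only the groups compared (0.0531). Beside low dexamethasone it rose by 3.47 ± 0.404 with salmeterol (adjusted p = 0.000529; at least 6.42-fold), which held without any 1 array. With CGS-21680 it rose by 2.39 ± 0.404 beside dexamethasone (adjusted p = 0.0156; at least 3.05-fold), lost without low dexamethasone replicate 1 (0.0874) or 2 (0.0836), with no filter (0.0653), with only the groups compared (0.298) and with levels below 4 raised to 4 (1.61, adjusted p = 0.0709). CGS-21680 alone gave 1.57 ± 0.404 and did not pass (adjusted p = 0.191; at least 1.73-fold).

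The CGS-21680 combination set the spread of PDE3B, with replicates at 4.82 and 6.40. Leaving out either of them brought CGS-21680 alone past the test (1.57, adjusted p = 0.0136 in both fits). Without replicate 2 the CGS-21680 combination lay below the salmeterol combination by the test (−1.86, adjusted p = 0.0109), whereas with all arrays the difference was −1.07 ± 0.404 (adjusted p = 0.367). Without replicate 1, dexamethasone added 1.60 beside CGS-21680 (adjusted p = 0.00444), against 0.82 ± 0.404 with all arrays (adjusted p = 0.243). Leaving out either also brought the difference of 1.06 between salmeterol with and without dexamethasone past the test (adjusted p = 0.00609 and 0.00607, from 0.115).

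The 2 other PDE3B probe sets were also highest in the salmeterol combination and lowest without an agonist, but put the CGS-21680 combination above salmeterol alone, which 214582_at did not. Probe set 222317_at had 2.30 and 2.30 in untreated cells, 3.08 and 4.81 with salmeterol, 2.95 and 4.33 with CGS-21680, 5.95 and 6.74 with salmeterol and low dexamethasone and 4.83 and 6.22 with CGS-21680 and low dexamethasone. It rose by 4.05 and 3.23 beside low dexamethasone with salmeterol (adjusted p = 0.00348) and CGS-21680 (adjusted p = 0.0358), and dexamethasone raised it by 2.40 beside salmeterol (adjusted p = 0.0358). Salmeterol alone, called on 214582_at, did not pass here (1.65, adjusted p = 0.209). Its interactions, 2.41 and 1.89, did not pass (adjusted p = 0.361 and 0.931). Probe set 208591_s_at reached 3.82 and 3.99 with the salmeterol combination and did not pass the filter. PDE3A, the other gene of the family, was at 2.29 to 2.35 on all arrays with 4 probe sets.

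PDE7A encodes a high-affinity cyclic AMP-specific enzyme known from lymphocytes. Its level on every treated array lay above both untreated arrays, and the combinations were highest. Probe set 223358_s_at read 7.44 and 7.56 in untreated cells. It read 8.38 and 8.42 with salmeterol, 8.30 and 8.35 with CGS-21680, 8.04 and 8.29 with low and 8.16 and 8.39 with high dexamethasone. The combinations read 9.62 and 9.75 with salmeterol and 8.92 and 9.67 with CGS-21680, above all single treatments.

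Of these single treatments, salmeterol passed for PDE7A (0.90 ± 0.208, adjusted p = 0.0361), while CGS-21680 (0.82 ± 0.208, adjusted p = 0.181), low dexamethasone (0.66 ± 0.208, adjusted p = 0.119) and high dexamethasone (0.77 ± 0.208, adjusted p = 0.0517) did not. The salmeterol call passed only in the 4 fits that left out an array of high dexamethasone or of the CGS-21680 combination, and was lost in the other 10 (0.0525 to 0.18), with no filter (0.114), with the mean of the probe sets (0.0708) and with only the groups compared (0.079). Without either array of the CGS-21680 combination, the 3 other single treatments passed as well. Those arrays, at 8.92 and 9.67, were the widest pair of this probe set. Leaving out either takes their spread out of the model, so these passes add no support. High dexamethasone also passed with the replicate block (adjusted p = 0.0207), the log2 5 filter (0.0441), quantile normalization (0.0373), the trend and robust moderation (0.0416) and the mean of probe sets (0.71, adjusted p = 0.0389).

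Beside low dexamethasone, PDE7A rose by 1.52 ± 0.208 with salmeterol (adjusted p = 0.00136) and by 1.13 ± 0.208 with CGS-21680 (adjusted p = 0.0215). Low dexamethasone raised it by 1.28 ± 0.208 beside salmeterol (adjusted p = 0.00277) and by 0.97 ± 0.208 beside CGS-21680 (adjusted p = 0.0144). The salmeterol values held without any 1 array. The second was lost without low dexamethasone replicate 1 (0.131) or 2 (0.0703) and with no filter (0.0756). The last was lost with no filter (0.0568) and without CGS-21680 replicate 1 (0.0674) or 2 (0.0575), and it fell to 0.60 without replicate 2 of the CGS-21680 combination (adjusted p = 0.0414). Over untreated cells the combinations stood 2.18 ± 0.208 (adjusted p = 7.79e-05) and 1.79 ± 0.208 (adjusted p = 0.000538) higher, and the CGS-21680 values were lost with only the groups compared (0.317 beside low dexamethasone, 0.234 for dexamethasone beside it, 0.087 over untreated cells). The interactions were 0.62 ± 0.294 (adjusted p = 0.462) and 0.31 ± 0.294 (adjusted p = 1).

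Of 3 further PDE7A probe sets that passed the filter, 224046_s_at rose beside salmeterol when dexamethasone was added (1.89, adjusted p = 0.0437) and in that combination over untreated cells (1.84, adjusted p = 0.0355). Its high dexamethasone arrays were apart, at 4.32 and 6.09. Probe sets 1552343_s_at and 230444_at passed in none of the 15 comparisons, with maxima of 4.29 and 5.54. The remaining 2 PDE7A probe sets lay between 2.29 and 2.81. PDE7B, its paralogue, lay between 2.29 and 2.53 on all arrays with 3 probe sets.

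PDE8A, a high-affinity enzyme of another cyclic AMP-specific family, was called in 2 comparisons, both with the salmeterol combination. Probe set 212522_at read 5.64 and 5.64 in untreated cells, 6.53 and 6.00 with salmeterol, 6.60 and 6.24 with CGS-21680, 5.63 and 5.61 with low and 5.48 and 5.52 with high dexamethasone. The combinations read 6.90 and 6.18 with salmeterol and 5.77 and 6.06 with CGS-21680. All 8 agonist arrays lay above the 6 arrays without an agonist.

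PDE8A rose in the salmeterol combination over low dexamethasone (0.92 ± 0.243, adjusted p = 0.0336) and over untreated cells (0.90 ± 0.243, adjusted p = 0.0237). Without replicate 1 of that combination these were 0.56 (adjusted p = 0.209) and 0.54 (adjusted p = 0.16). The first was also lost without either untreated or low dexamethasone array (0.0525 to 0.134), the second without either untreated array (0.0954 and 0.0933), and both with no filter (0.118 and 0.0864) and with only the groups compared (0.178 and 0.145). The single agonists did not pass (0.63 ± 0.243, adjusted p = 0.185, and 0.78 ± 0.243, adjusted p = 0.334), nor did CGS-21680 beside dexamethasone (0.29 ± 0.243, adjusted p = 0.684). Probe set 212521_s_at stayed between 4.14 and 4.97 and passed in no comparison. The other PDE8A probe sets lay between 2.38 and 3.64, and PDE8B was at 2.29 on all arrays with 3 probe sets.

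**Figure D2:**
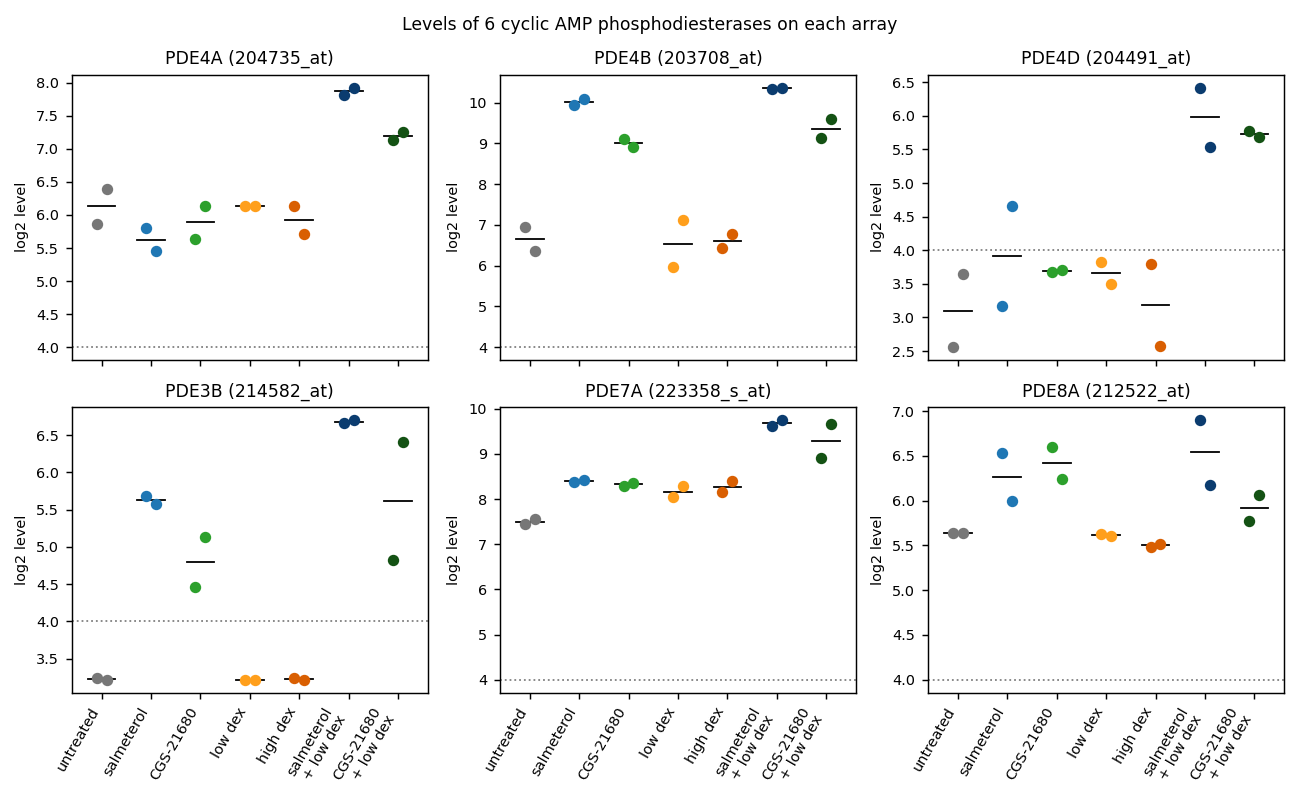
Log2 level of the probe set in the gene fit for 6 phosphodiesterases on each of the 14 arrays, by group (2 points per group, bar at their mean; the dotted line is the filter level of 4; vertical scales differ). PDE4B and PDE3B are high in the 4 agonist groups, and PDE4A and PDE4D in the combinations.

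**Figure D3:**
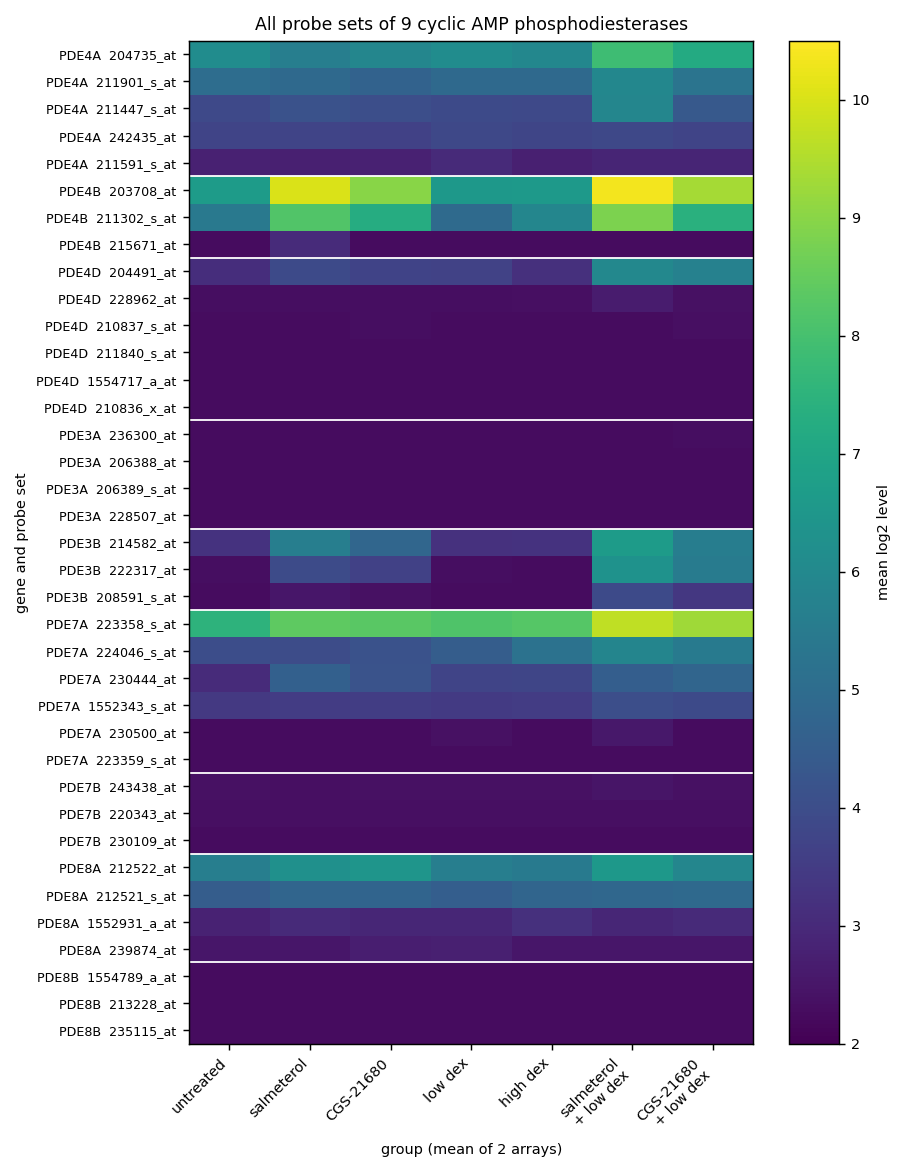
Mean log2 level over 2 arrays of each of the 37 probe sets (rows, by gene) in the 7 groups (columns), coloured by level. PDE3A, PDE7B and PDE8B are dark throughout, and within PDE4D and PDE7A single probe sets carry most of the signal.

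Counted over the family, 3 of the 6 tested genes rose with salmeterol alone (PDE4B, PDE3B and PDE7A), in a comparison that called 1.73% of all genes as higher. With CGS-21680 alone 1 rose (PDE4B), where 0.387% of all genes did. With low dexamethasone 0 of the 6 tested changed by limma where 4.66% of all genes did, and with high dexamethasone 0 where 8.58% did; at an unadjusted p under 0.05 this was PDE7A alone in both. Beside low dexamethasone, 6 rose with salmeterol, where 6.29% of all genes did, and 4 with CGS-21680 (PDE4A, PDE4B, PDE3B and PDE7A), where 1.75% did. No member fell in any of the 15 comparisons. PDE4A, PDE4D and PDE7A rose when low dexamethasone was added to either agonist, in comparisons that called 9.74% of all genes as higher beside salmeterol and 6.01% beside CGS-21680. Over untreated cells 6 members rose in the salmeterol combination (10.9% of all genes) and 5 in the CGS-21680 combination (7.66%). PDE3B and PDE4D entered the test only through treated arrays, so their calls in these counts follow in part from the filter. The same holds for their probe sets in the count below, and the counts are descriptions. Among the 14 tested probe sets, 11 were called in at least 1 comparison, against 29.5% of all 15606 probe sets, and that number lay between 9 and 11 without single arrays.

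**Figure D4:**
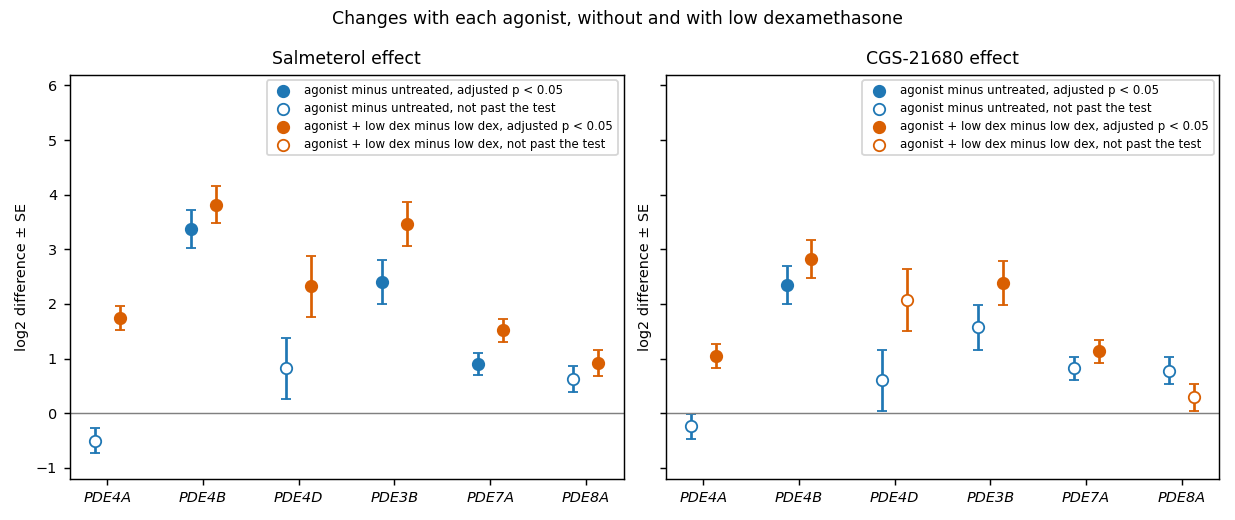
Log2 difference and its standard error for each tested phosphodiesterase with salmeterol (left) and CGS-21680 (right), against untreated cells (blue) and, with low dexamethasone in both groups, against low dexamethasone (orange); filled points passed the limma test. For PDE4A the salmeterol values are −0.50 and 1.74, while for PDE4B they are 3.37 and 3.82.

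Set directly against each other, the agonists differed for none of the 6 members by limma, alone (0.495% of genes called) or beside dexamethasone (1.2%). The doses were 1 nM and 12.5 nM. For PDE4B, CGS-21680 gave less than salmeterol by 1.02 alone (−1.02 ± 0.342, adjusted p = 0.242; 95% interval −1.79 to −0.25) and beside dexamethasone the means were 9.35 and 10.35 (adjusted p = 0.295; 95% interval −1.77 to −0.23). For PDE4A the difference beside dexamethasone was −0.68 ± 0.225 (adjusted p = 0.274; −1.19 to −0.18), but its probe set 211447_s_at differed by −1.50 (adjusted p = 0.00607) and the mean of its probe sets by −0.95 (adjusted p = 0.00455). For PDE7A alone the difference was −0.08 ± 0.208 (adjusted p = 0.942; −0.54 to 0.39). These intervals are not adjusted for the number of genes, and they do not show that the agonists act alike. At an unadjusted p under 0.05 the agonists differed for PDE4B alone, and beside dexamethasone for PDE4A, PDE4B, PDE3B and PDE8A. The doses of dexamethasone were not distinguished for any of the 6 (0% of genes called), with values of −0.47 to 0.11 and unadjusted p = 0.353 to 0.977.

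Genes for the making and sensing of cyclic AMP were tested as a further list. Of 18 tested genes for cyclases, G-protein subunits, protein kinase A, its inhibitors and cyclic AMP effectors or exporters, 0 passed by limma with salmeterol or CGS-21680 alone, where 5.97% and 0.656% of all genes did, with medians of 0.01 and −0.01 against −0.06 and 0.01 over all genes. In the salmeterol combination against untreated cells 4 rose and 1 fell, in a comparison that called 24.6% of all genes, so the count is near that share. ADCY1, an adenylyl cyclase, fell by 1.67 (−1.67 ± 0.133, adjusted p = 2.73e-05 by limma), from 7.11 ± 0.05 to 5.44 ± 0.16 (SD, n = 2), and already by 1.13 with low dexamethasone (adjusted p = 0.00154). With high dexamethasone its mean was 6.64 ± 0.22, against 5.98 ± 0.11 with the low dose, and it was not called. PRKAR2B, a regulatory subunit of protein kinase A, rose by 1.71 ± 0.287 (adjusted p = 0.00222), GNAI2, an inhibitory G-protein subunit, by 0.61 ± 0.0944 and GNAS, the stimulatory one, by 0.48 ± 0.109. PRKAR1A, another regulatory subunit, named after its values were seen, rose by 1.10 ± 0.283.

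Anchoring and partner proteins, which place phosphodiesterases and protein kinase A in the cell, had 0 of 9 tested genes called with either agonist alone, at those same shares of all genes. AKAP13 rose with low dexamethasone (0.83 ± 0.178, adjusted p = 0.0309) and further with salmeterol beside it (0.64 ± 0.178, adjusted p = 0.04), while AKAP1 (−0.80 ± 0.142, adjusted p = 0.00525) and AKAP10 (−0.70 ± 0.149, adjusted p = 0.0135) fell there. Of 14 other genes named as phosphodiesterases or their subunits, 3 were tested. PDE5A, specific for cyclic GMP, passed with high dexamethasone (adjusted p = 0.00238, limma), with a mean of 5.09 ± 0.44 (SD, n = 2). Its other group means, 3.33 in untreated cells included, lay below the filter level, so high dexamethasone alone brought it through the filter and no size is given. PDE6D, which carries prenylated proteins, rose by 0.78 ± 0.155 when dexamethasone was added to salmeterol (adjusted p = 0.00854).

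CREB factors and target genes moved in both directions with salmeterol. With salmeterol alone 2 of 13 rose and 2 fell, where 1.73% of all genes rose and 4.24% fell. Beside low dexamethasone 6 rose and 1 fell, where 6.29% rose and 8.13% fell (medians 0.03 and 0.38, against −0.06 and 0.00 over all genes). RGS2, a regulator of G-protein signalling, rose by 2.23 ± 0.113 alone (adjusted p = 1.03e-05) and by 1.93 ± 0.113 beside dexamethasone (adjusted p = 8.66e-06). CREM, a CREB-family factor, rose by 3.01 ± 0.356 alone (adjusted p = 0.00166), from 4.47 ± 0.53 to 7.48 ± 0.23 (SD, n = 2), while NFIL3 fell by 1.07 (adjusted p = 0.000629). NR4A1, a nuclear receptor, had means of 5.79, 5.77 and 5.81 in untreated cells, with salmeterol and with low dexamethasone and of 6.59 with both (interaction 0.80 ± 0.153, adjusted p = 0.0382). SIK1, a kinase that acts on CREB coactivators, rose by 1.34 ± 0.197 with salmeterol beside dexamethasone (adjusted p = 0.00197), and CREB3L2 fell by 1.52 there (adjusted p = 0.00036). Low dexamethasone alone raised CREB3L2 by 2.62 (adjusted p = 3.82e-05) and NFIL3 by 0.97 (adjusted p = 0.00113). In the salmeterol combination both stayed above untreated cells, by 1.10 (adjusted p = 0.00116) and 0.76 (adjusted p = 0.000723).

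The genes whose levels were most like PDE4B over the 14 arrays were STAT4 (r = 0.985), TESC (0.985) and DAPK1 (0.982). For PDE3B they were DNAAF1 (0.969), SQSTM1 (0.968) and IGFLR1 (0.966), and for PDE4A POLR1E (0.954), ADA (0.949) and FUNDC2 (0.945). PDE4D was most like THEMIS2 (0.919), PIK3C2B (0.916) and BCL7C (0.914). PDE7A was most like SRGN (0.974), BCL2L11 (0.969) and AAK1 (0.968), and PDE8A like EXO1 (0.892), CDC45 (0.886) and PSMD14 (0.866). Among the members themselves PDE4B was closest to PDE3B (0.95) and least like PDE4A (0.43), while PDE4A was closest to PDE4D (0.83). These are Pearson correlations of log2 levels over arrays that share treatments in pairs, given as a description.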

How the data were processed

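RNA of MM1S cells from 7 treatment groups was measured on 14 Affymetrix arrays, 2 per group. The deposited intensity values had been background-corrected and normalized with GCRMA by the authors, per the submitters' processing notes. Neither the version nor any settings were stated in the sources used here. The values looked linear, with a shared floor of 4.879 (log2 2.29) that held 37.6% to 40.1% of probe sets, so levels at the floor have no order. From them, log2 levels were computed. Of 54675 probe sets, 41097 carried 1 gene symbol, 1801 several and 11777 none in the platform annotation, and only the first were named.

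A probe set entered when it reached log2 4 on at least 2 arrays, and each gene was represented by its probe set with the highest mean. limma 3.58.1 in R 4.3.3 fitted 7 group means, with 7 residual degrees of freedom, and 15 comparisons were tested with Benjamini-Hochberg adjustment over 9301 genes at 0.05, checked on simulated data. Alternatives were no filter, a filter of log2 5, the mean of probe sets, quantile normalization, trend and robust moderation, only the groups compared, the replicate number as a block, weak values raised to 4, and each array left out in turn. An at-least fold set levels below log2 4 to 4 and is an estimate, not a confidence limit. The 10 genes were all described. Of each of 4 lists of related genes, up to 4 called genes per comparison were named by smallest adjusted p, and for each called member the 3 genes with the highest Pearson correlation. The members and lists were chosen with earlier results of these data known. With 2 arrays a group, their number limits the precision. Promoter sequences came from RefSeq.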

Additional observations from a re-analysis of the deposited data

Results flagged for a closer look

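The change of PDE4A with salmeterol differed between cells with and without low dexamethasone. The difference of these changes was 2.24 ± 0.318 on the log2 scale (adjusted p = 0.0084, limma, interaction term), from −0.50 without to 1.74 with dexamethasone, and both combination arrays lay above the 2 arrays of each other group in this comparison.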

How the results depend on the processing

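Of 32 pairs of member and comparison that passed, 18 passed in every fit without 1 array and 10 in all 8 other alternatives, and 0 reversed. With only the groups compared, members called were 0 for salmeterol, CGS-21680, CGS-21680 beside low dexamethasone and its combination over untreated cells, 1 for dexamethasone beside CGS-21680, 3 for salmeterol beside low dexamethasone and 2 for its interaction; such fits hold fewer arrays. With no filter, more genes were tested, and the counts were 0 for CGS-21680, 1 beside low dexamethasone, 1 for dexamethasone beside CGS-21680 and 3 for that combination over untreated cells. With the mean of probe sets they were 0 for CGS-21680, 1 for high dexamethasone and 1 between the combinations. High dexamethasone also had 1 with the log2 5 filter, quantile normalization and trend and robust moderation; the cause was not tested.

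Without single arrays, members called ranged from 1 to 3 for salmeterol, 0 to 3 for CGS-21680, 0 to 1 for either dose of dexamethasone, 4 to 6 for salmeterol and 1 to 4 for CGS-21680 beside low dexamethasone, 2 to 4 and 1 to 3 for dexamethasone beside salmeterol and CGS-21680, 0 to 1 between the combinations, and 5 to 6 and 3 to 5 for these over untreated cells. Called member probe sets ranged from 9 to 11, with 8 when only the groups compared were fitted. A lone array was assumed to vary like the other groups.

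Over all genes, fits of only the groups compared called 5 genes for salmeterol against 555, and 12 for low dexamethasone against 433. With 1 array left out, salmeterol called 213 to 571 genes and high against low dexamethasone 0 to 60.

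The replicate number as a block gave 1 member, PDE7A, with high dexamethasone, and left 31 of the 32 calls, against 19 with no filter and 11 with only the groups compared. The deviations of replicate 1 from its group mean correlated between groups at −0.17 to 0.26 over 21 pairs of groups, 12 of them over 0.1. Over all genes, the block gave more calls with salmeterol and with either dose of dexamethasone. The main fit did not take the numbers to pair samples, and whether same-numbered samples shared a source was not tested.

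Levels below log2 4 limit PDE4D and PDE3B, whose folds are bounds with regard to low levels only, and PDE4A probe set 211447_s_at. PDE3A, PDE7B and PDE8B were not measurable here.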
